A study of Mus musculus and Homo sapiens
Mus musculus with 16 samples.

Results

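The interactions described are the pairs of 10 kb genome bins that were listed as interacting in both E12.5 libraries and in neither E16.5 library of mouse fetal forebrain. The members were chosen by the measured lists themselves, that is by whether each library listed a pair. The first bin, the second bin and the chromosome of each pair were matched exactly across the 4 lists. Listed pairs had an FDR under 0.01 and a ratio of observed to expected count of at least 2, limits that were read from the values. There were 1074 E12.5-only pairs, 1.83% of the 58543 pairs listed in at least 1 library. They made up 11.3% of the 9472 pairs listed in both E12.5 libraries. That share depends on the rule: it was 25.0% (2205 pairs) with all lists cut to the same length, and 3.10% (294 pairs) where an E16.5 pair within 1 bin also counted as a match. The remaining 8398 of those, called shared pairs here, were listed in at least 1 E16.5 library, 6875 of them in both.

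The series holds 16 samples, of which the 4 H3K4me3 PLAC-seq libraries were used: replicates 1 and 2 of forebrain at embryonic stage E12.5, and replicates 1 and 2 at E16.5. The labels give no genotype, strain, sex, treatment or number of embryos for these tissues, and whether the replicates came from separate litters is not stated, so the spread between them may be technical. The extraction text of E12.5 replicate 1 describes adult cortex and another workflow, while its title, tissue and stage say fetal forebrain at E12.5. In its values that library sat with the other E12.5 library: over the 6875 pairs in all 4 lists, the log2 read-pair counts of the 2 had a Pearson r of 0.885, against 0.780 and 0.751 for E12.5 replicate 1 with the E16.5 libraries.

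PLAC-seq ligates DNA ends that lie near each other in crosslinked nuclei and then pulls down the ligated fragments with an antibody. The antibody here was against H3K4me3, a histone mark found at the start sites of genes that are active or poised, so that at least 1 end of most pairs is a promoter region and the other end is often an enhancer or another promoter. In the forebrain, early stages are dominated by dividing radial glia, which are patterned into dorsal and ventral regions by transcription factors such as Emx2, Lhx2 and Pax6. Later stages hold many more postmitotic neurons. All of the tissue was profiled together, so fewer cells with a contact and a weaker contact per cell cannot be told apart.

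The lists differ in length. The E12.5 lists held 18413 and 16075 pairs and the E16.5 lists 35291 and 36794, so that the mean E16.5 list was 2.09 times as long. Listed pairs carried 446855 and 405491 read pairs at E12.5, then 892987 and 911710 at E16.5. The sequencing depth of the libraries is unknown, and the count of a pair in a library that does not list it is not in the tables. An unlisted pair was below the authors' threshold there, which is not the same as having no contact. Each member was thus absent from the longer lists. The lists also hold forebrain promoters at both stages: the bin of Six3, an anterior forebrain factor, had 32 and 33 listed interactions at E12.5, then 32 and 29 at the later stage. Of 10 endothelial genes none had a listed interaction at E12.5, and the bins of 39 Hox genes, which mark the hindbrain and spinal cord rather than the forebrain, had 304 and 187 listed interactions at E12.5, then 285 and 187 at E16.5.

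Several of the bins with the most E12.5-only interactions hold the start of a gene. The 250 bases upstream of 4 of these starts are shown because H3K4me3 lies at such sites, typically where CG dinucleotides are dense. They come from RefSeq on GRCm38.p6, read 5′ to 3′ on the strand of the gene, with every CG in capitals. Promoter entries were matched for 5 genes at the 12 bins with the most E12.5-only interactions.
Emx2, chr19:59458440-59458689, plus strand: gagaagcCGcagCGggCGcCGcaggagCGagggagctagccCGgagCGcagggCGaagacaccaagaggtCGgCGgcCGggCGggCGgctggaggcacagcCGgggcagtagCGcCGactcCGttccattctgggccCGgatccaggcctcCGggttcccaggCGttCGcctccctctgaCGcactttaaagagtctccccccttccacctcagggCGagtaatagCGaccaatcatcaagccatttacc
Lef1, chr3:131110047-131110296, plus strand: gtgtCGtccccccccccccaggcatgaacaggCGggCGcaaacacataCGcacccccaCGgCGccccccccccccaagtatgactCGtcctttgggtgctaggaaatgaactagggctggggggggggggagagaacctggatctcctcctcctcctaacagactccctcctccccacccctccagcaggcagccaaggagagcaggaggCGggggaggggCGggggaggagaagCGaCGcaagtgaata
Zfp36l1, chr12:80113014-80113263, minus strand: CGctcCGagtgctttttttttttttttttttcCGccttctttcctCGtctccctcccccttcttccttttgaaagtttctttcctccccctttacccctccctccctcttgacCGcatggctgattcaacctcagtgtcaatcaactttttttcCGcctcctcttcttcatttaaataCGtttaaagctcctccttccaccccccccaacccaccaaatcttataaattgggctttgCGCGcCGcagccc
Pax2, chr19:44746351-44746600, plus strand: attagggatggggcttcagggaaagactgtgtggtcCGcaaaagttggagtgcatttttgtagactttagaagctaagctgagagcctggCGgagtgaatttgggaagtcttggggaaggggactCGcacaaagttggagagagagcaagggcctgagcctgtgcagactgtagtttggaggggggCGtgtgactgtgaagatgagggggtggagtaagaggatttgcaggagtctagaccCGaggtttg

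The Emx2 window held 24 CG, a number reached by 12% of 32851 RefSeq promoter windows of the same length, whose median was 6 (interquartile range 2 to 16). The windows of Lef1 and Zfp36l1 held 11 and 10, reached by 35.6% and 37.8% of all windows, and that of Pax2 held 5, reached by 55.6%. The remaining matched start, that of Gm52006 at the Zfp36l1 bin, is not shown. Its window held 1 CG, reached by 92.1% of all windows. At least 1 CG was present in 92.13% of all windows, so its presence alone separates little. The Lef1 window belongs to 1 of 3 annotated starts in its bin.

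At 2 of the leading bins a microRNA gene stands in place of, or beside, a protein-coding start. These are Mir9-2, which encodes the neural microRNA miR-9, and Mir10a, which lies inside the Hoxb cluster. Their mature sequences are shown with the seed, bases 2 to 8, in capitals, since the seed sets which messages a microRNA can pair with. The seeds of miR-9-5p, miR-9-3p and miR-10a-5p all differ.
mmu-miR-9-5p, chr13:83738821-83738843, plus strand: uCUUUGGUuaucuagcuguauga
mmu-miR-9-3p, chr13:83738858-83738879, plus strand: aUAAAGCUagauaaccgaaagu
mmu-miR-10a-5p, chr11:96317186-96317208, plus strand: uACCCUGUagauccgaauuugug

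Most E12.5-only interactions lay next to an interaction that was still listed at E16.5. For 780 of the 1074 (72.6%), an E16.5 list held a pair shifted by at most 1 bin (10 kb) at each end. For another 102 (9.50%) the nearest such pair was 2 bins away, and for 192 (17.9%) there was none within 2 bins. Seen by their ends, 617 members (57.4%) joined 2 bins that each had some other listed interaction at E16.5. A further 442 (41.2%) had such a bin at 1 end, and 15 (1.40%) at neither. The exact-match rule therefore takes in pairs with a listed neighbour at E16.5 and pairs whose whole neighbourhood was unlisted there, and both numbers are given for the bins described.

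E12.5-only pairs were supported by fewer read pairs than shared pairs in the same libraries. The median count was 20 and 18 in replicates 1 and 2, against 24 and 22 for shared pairs. The median ratio of the observed to the authors' expected count was 3.62 and 3.71, against 4.20 and 4.33. An FDR under 0.0001 in both E12.5 libraries was reached by 297 members (27.7%) and by 4353 shared pairs (51.8%). The 2 E12.5 libraries ranked the members alike, with a Pearson r of 0.904 between log2 counts and a Spearman rho of 0.878 between counts over the 1074 pairs; the points share bins and distance, and all had passed the threshold in both. By the authors' cluster types, 67.9% and 69.2% of members lay in sharp clusters in the 2 libraries, against 60.0% and 62.0% of shared pairs. Broad clusters held 27.0% and 25.8% of members and 36.9% and 34.3% of shared pairs.

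The threshold itself decides membership at the margin. The least significant members had an FDR of 0.00994 in 1 E12.5 library, against the limit of 0.01 read from the lists. They were a pair near Kcnn3 with 13 and 12 read pairs, and a pair of Lef1 with 21 and 18. Just outside the rule lay a 530 kb pair from within Pax6 to Dcdc5, with 20 and 21 read pairs at E12.5, which E16.5 replicate 1 listed with 13 read pairs at an FDR of 0.00991. A pair from Mybl2 to Jph2 with 16 and 15 read pairs, and 1 of Foxl1 with 12 and 14, were excluded by E16.5 replicate 1 in the same way, each with 12 read pairs.

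The members were somewhat shorter than shared pairs. Their median distance was 230 kb (interquartile range 140 to 390, full range 20 to 990), against 270 kb (160 to 450, 20 to 1000). Pairs of 20 to 100 kb made up 15.3% of members and 10.4% of shared pairs, and pairs of 710 to 1000 kb made up 7.17% and 9.55%. Read the other way, the share of pairs listed only at E12.5 went from 15.8% of those at 20 to 100 kb, through 13.2%, 10.4% and 9.31%, to 8.76% of those at 710 to 1000 kb. The median was lower still, 170 kb, for the 192 members with no E16.5 pair within 2 bins. The lists themselves differed in distance, with medians of 260 and 260 kb at E12.5, then 300 and 290 kb at E16.5. The part of that difference in the shorter distance of the members was not tested.

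**Figure D1:**
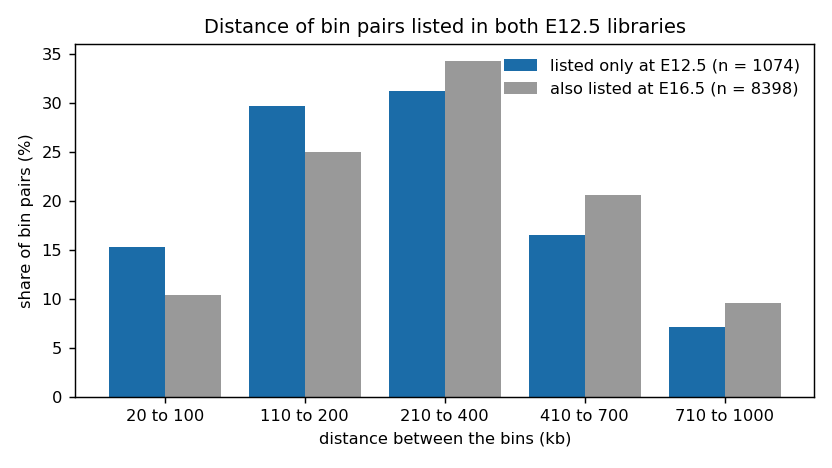
Share of bin pairs (y axis, %) in 5 classes of distance between the bins (x axis, kb) for the 1074 pairs listed only at E12.5 and the 8398 pairs also listed at E16.5. The E12.5-only pairs hold the larger share in both classes up to 200 kb and the smaller share in all 3 classes above it.

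All 19 autosomes carried members. Chromosome 2 had the most, 141, followed by chromosome 11 with 113 and chromosome 5 with 88. Relative to the pairs listed in both E12.5 libraries, the highest share was on chromosome 19, 57 of 306 (18.6%), and the lowest on chromosome 15, 14 of 346 (4.05%). On chromosome 19, the Emx2 and Pax2 loci together held 35 of the 57 members.

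E12.5-only pairs more often had no gene at either end than shared pairs. A gene was placed by its annotated start, or by either end where no start was at hand. By that definition 587 members (54.7%) had a protein-coding gene at 1 end or both, against 6083 shared pairs (72.4%). Both ends held a gene in 58 members (5.40%) and 752 shared pairs (8.95%). Counting either end of every gene gave 65.0% against 75.9%, and counting any part of a gene gave 84.2% against 91.2%, so the order was the same under each definition. Of 2424 genes with a pair in both E12.5 lists, 483 (19.9%) had at least 1 E12.5-only pair, 130 had at least 2 and 18 had at least 5. All pairs of a gene were E12.5-only, given at least 3, at Pax7 and Elane alone. Pax7, a paired-box factor of the dorsal midbrain and of muscle precursors, had 9 and 4 listed interactions at E12.5, against 0 at E16.5, and Elane, which encodes neutrophil elastase, had 4 and 3, then 1 and 0.

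The longest members with a gene at each end joined Hoxa13, the most 5′ gene of the Hoxa cluster, to Jazf1 over 640 kb, with 14 and 12 read pairs against 2.54 and 2.20 expected. Next came a pair from the bin of Etf1 and Hspa9 to Sil1 (560 kb, 15 and 12 read pairs) and a pair from Prepl and Camkmt to Six3 (530 kb, 23 and 15). Anxa13 was joined to Trmt12 over 490 kb with 11 and 12 read pairs. Pax2 was joined over the same distance to Lbx1, a homeobox gene of dorsal spinal cord and muscle precursors, with 28 and 29. The first 4 had an E16.5 pair within 1 bin, and the Pax2 to Lbx1 pair had none.

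Members with the most read pairs were short. A 30 kb pair within Msi1, which encodes an RNA-binding protein of neural progenitors, had 215 and 250 read pairs against 106 and 116 expected. A 20 kb pair within Igdcc3 had 178 and 186 against 88.3 and 87.7. An 80 kb pair from Aurkb, a mitotic kinase, to the bin of Hes7 and Aloxe3 had 144 and 179, ratios of 2.19 and 2.39. At these distances a ratio just over 2 passed the threshold, whereas the long pairs passed on few reads with a high ratio.

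The highest ratios of observed to expected count belonged to long pairs. A pair of the Tbx3 bin with a bin 810 kb away, whose nearest gene is Med13l, had 30 and 31 read pairs against 1.94 and 1.78 expected, ratios of 15.5 and 17.4. Tbx3 encodes a T-box repressor needed for limb, heart and hypothalamic development. A second pair between the same regions, 920 kb apart, had 18 and 15 read pairs against 1.62 and 1.51, with no E16.5 pair within 1 bin. A bin within Rgma, a repulsive guidance molecule, met a bin 990 kb away with 18 and 14 read pairs against 1.56 and 1.54. The other 5 of the 8 highest were a 650 kb pair next to Zic1, a 650 kb pair from Clybl to Pcca across the Zic2 and Zic5 genes, a 950 kb pair of Col12a1, a 680 kb pair beside Emx2 and a 200 kb pair from Cd40 to Slc35c2. Of the 8, the second Tbx3 pair and the Clybl to Pcca pair had no E16.5 pair within 1 bin.

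Most bins with an E12.5-only interaction had 1, and a few had many. The members touched 1627 bins, of which 1320 had 1 member, 283 had 2 to 4 and 24 had at least 5. Those 24 bins were touched by 167 members. The 12 with the most are described by 4 numbers each, the interactions listed at the bin, whatever the partner, in the order E12.5 replicates 1 and 2 and E16.5 replicates 1 and 2. Choosing bins by their E12.5-only pairs favours higher E12.5 numbers. The share of all bins with higher numbers in both E12.5 libraries was not counted, so nothing is read from that order.

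Emx2, a homeobox gene that patterns the dorsal telencephalon and its cortical areas, had the most. The bin at its higher-coordinate end, chr19:59460001-59470000, had 13 E12.5-only pairs of 37 listed in both E12.5 libraries. Its listed interactions numbered 48 and 51 at E12.5, then 29 and 33 at E16.5. All 13 partners lay at higher coordinates, 190 to 830 kb away. The strongest, within Fam204a at 740 kb, had 27 and 24 read pairs against 3.86 and 3.46 expected. The partner at 550 kb, chr19:60010001-60020000, had 29 and 31 against 5.36 and 4.57; no interaction of that partner bin was listed at E16.5. The bin with the Emx2 start printed above, chr19:59450001-59460000, had 8 E12.5-only pairs of 30. Its totals were 37 and 48 at E12.5, against 36 and 37 at E16.5, which touch, so the stages differed less in number at the start than at the neighbouring bin.

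The Hoxb cluster, which sets position along the hindbrain and spinal cord, supplied the second bin. This bin, chr11:96300001-96310000, holds ends of Hoxb3, Hoxb5 and Hoxb6, which cannot be told apart at 10 kb. It had 10 E12.5-only pairs of 13, with 21 and 16 listed interactions at E12.5, then 12 and 5 at E16.5. Its partners lay 230 to 450 kb away at higher coordinates, all of them in bins that overlap Skap1, a T-cell adaptor gene. The partner at 250 kb had 57 and 22 read pairs against 7.86 and 5.90. The neighbouring bin with the Hoxb4 start and Mir10a had 6 E12.5-only pairs of 7 and totals of 15, 11, 5 and 1. None of its 6 had an E16.5 pair within 1 bin.

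Lhx2, a LIM-homeobox selector of cortical identity, and Tbx3 each had a bin at which all 10 pairs in both E12.5 lists were E12.5-only. The Lhx2 bin, chr2:38360001-38370000, lies at the higher-coordinate end of the gene and had 14 and 16 listed interactions at E12.5, against 0 and 2 at E16.5. Its partners lay 220 to 560 kb away at lower coordinates, the strongest within Dennd1a at 430 kb with 30 and 25 read pairs against 3.72 and 3.22. The bins of the Lhx2 starts had 58 and 59 listed interactions at E12.5, then 55 and 64 at E16.5, with 3 E12.5-only pairs. The Tbx3 bin, chr5:119680001-119690000, holds the higher-coordinate end of the gene, whose start was not placed. It had 13 and 11 listed interactions at E12.5, against 0 and 0 at E16.5, with partners 790 to 920 kb away at lower coordinates. The 2 end bins of Tbx3 together had 27 and 22 at E12.5, then 20 and 11 at E16.5, with 11 E12.5-only pairs of 19. Each of the 10 pairs at the Lhx2 bin, and each at the higher-coordinate Tbx3 bin, had an E16.5 pair within 1 bin at both ends. In both cases an E16.5 list thus held a pair shifted by at most 10 kb.

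The fifth bin, chr13:83730001-83740000, holds no protein-coding start. It contains Mir9-2 and part of its host transcript C130071C03Rik, 62.9 kb from Mef2c. It had 9 E12.5-only pairs of 39, and 48 and 46 listed interactions at E12.5 against 35 and 27 at E16.5. The partners lay 150 to 940 kb away at higher coordinates, and the farthest had 24 and 24 read pairs against 6.08 and 4.65. The bin was thus well connected at both stages, with more listed partners at E12.5.

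The sixth bin, chr2:165070001-165080000, holds the higher-coordinate end of Cd40, a TNF receptor family member of immune cells, whose start was not placed. The noncoding RNA gene 1700025C18Rik also overlaps this bin. The bin had 9 E12.5-only pairs of 13, and 14, 18, 4 and 5 listed interactions. The pair with Slc35c2 at 200 kb had 52 and 54 read pairs against 6.36 and 5.52. Of 9 microglial genes, 1 had an E12.5-only pair, C1qa, and the list stood at 1 of 4 pairs. Their bins had 9 and 10 listed interactions at E12.5, then 5 and 3 at E16.5. Of the 9, 5 were at 0 in every library (Cx3cr1, P2ry12, Csf1r, Spi1 and Trem2), and the other 4 included Cd68 with 3, 6, 4 and 0 and Aif1 with 2, 2, 1 and 2, in the order E12.5 replicates 1 and 2 and E16.5 replicates 1 and 2. The part of immune cells in the Cd40 pairs was not tested.

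The eighth bin, chr7:70320001-70330000, lies 21.9 kb from Nr2f2, a nuclear receptor of caudal and ventral forebrain, within the transcript Gm29683. It had 8 E12.5-only pairs of 9, and 15, 12, 2 and 1 listed interactions. The bin within Tle3, a Groucho-family corepressor, at chr9:61380001-61390000, had 8 of 8, and 15, 14, 1 and 1. At both bins each E12.5-only pair had an E16.5 pair within 1 bin.

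Lef1, which carries Wnt signals to the genome, had 7 E12.5-only pairs of 14 at chr3:131110001-131120000, and 17, 25, 9 and 14 listed interactions. Its 7 partners lay 150 to 390 kb away at lower coordinates, and 5 of them had no E16.5 pair within 1 bin. None of the 7 had an FDR under 0.0001 in both E12.5 libraries, so these are members of weak significance. Zfp36l1, an RNA-binding protein that promotes message decay, had 6 of 29 at the bin it shares with Gm52006, and 43, 39, 31 and 37. Pax2, a paired-box factor of the midbrain-hindbrain boundary, optic stalk and kidney, had 6 of 6 at chr19:44740001-44750000. The listed interactions of that bin numbered 8 and 8 at E12.5, against 0 and 1 at E16.5, and its partners included Lbx1 and Tlx1. The 2 start bins of Pax2 together had 16 and 12 at E12.5, then 8 and 9 at E16.5, with 7 E12.5-only pairs of 8.

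**Figure D2:**
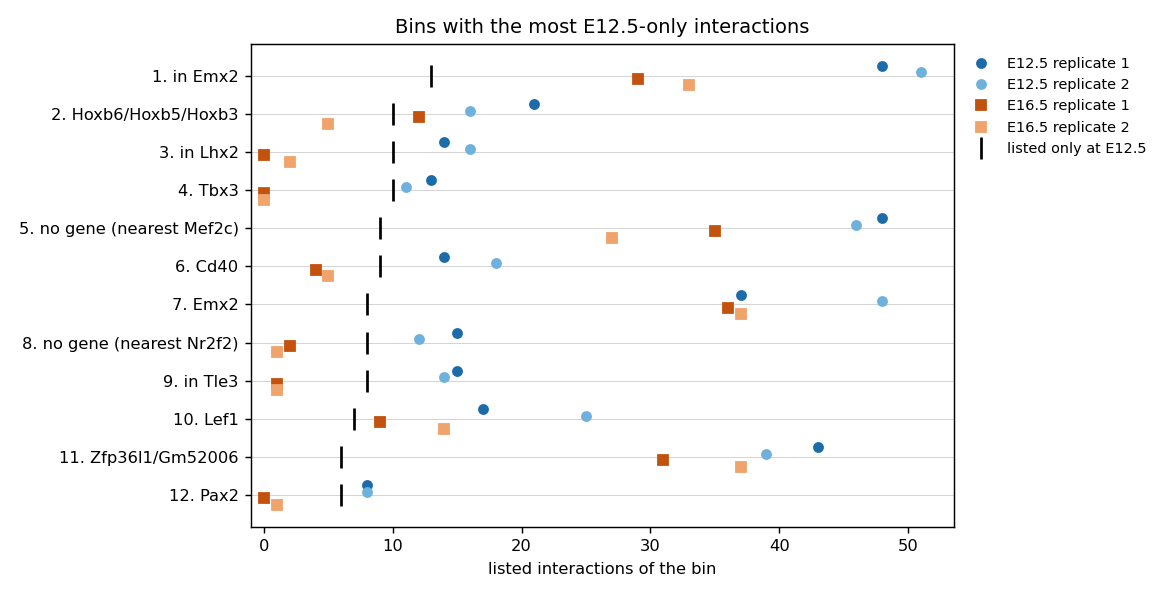
Listed interactions (x axis, number) of the 12 bins with the most E12.5-only pairs (rows), for E12.5 replicates 1 and 2 (circles) and E16.5 replicates 1 and 2 (squares), with the number of E12.5-only pairs as a vertical tick. Both E12.5 circles lie right of both E16.5 squares at each of the 12 bins, except that the bin of the Emx2 start has 37 in both E12.5 replicate 1 and E16.5 replicate 2. The choice of the bins by their E12.5-only pairs favours this order.

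**Figure D3:**
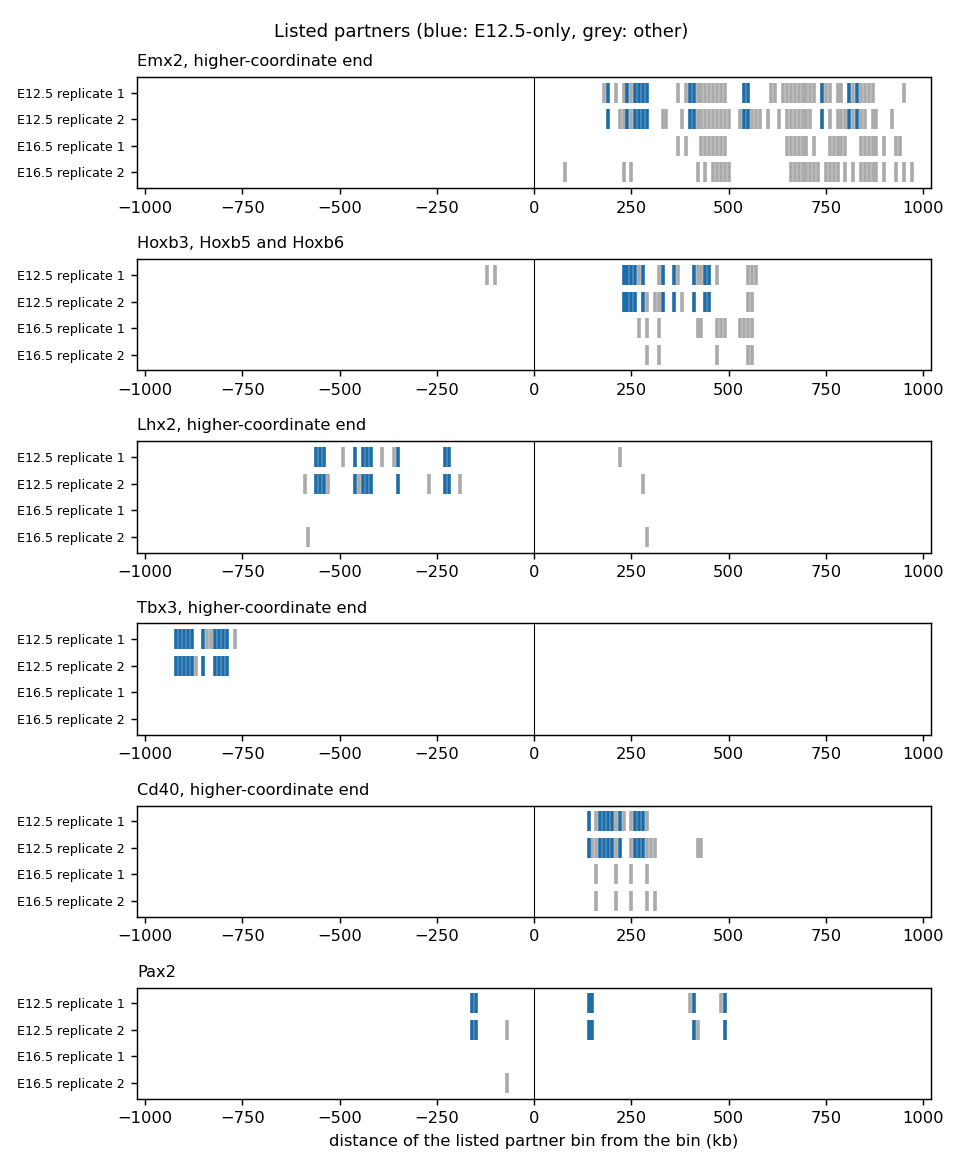
Partners of 6 bins in each library (rows), plotted by their distance from the bin (x axis, kb; negative is toward lower coordinates), with E12.5-only pairs in blue and other listed pairs in grey. The Emx2, Hoxb and Cd40 bins keep partners at E16.5 among the E12.5-only ones. The bins at the higher-coordinate ends of Lhx2 and Tbx3, and the Pax2 bin shown, have 0 to 2 listed partners in each E16.5 library.

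The other 12 bins with at least 5 E12.5-only pairs were those of Hoxb4, Olig2, Id4, Dmrta2 and Ror2, bins within Hoxd3, Pax6, Bcl11a and Rgma, a second bin near Nr2f2 and 2 bins near Tbx3. Olig2, a basic helix-loop-helix factor of ventral progenitors and oligodendrocytes, had 5 E12.5-only pairs of 7, and 8, 7, 2 and 0 listed interactions. Its 5 pairs had 38 to 59 read pairs in replicate 1 and 37 to 42 in replicate 2. Dmrta2, a dorsomedial cortical regulator, had 5 of 10, and 12, 11, 5 and 5. Ror2, a receptor for Wnt5a, had 5 of 7, and 9, 7, 2 and 3, with its partners inside its own gene 110 to 150 kb away. Id4, an inhibitor of basic helix-loop-helix factors, differed from these: it had 5 of 33, and its listed interactions were more numerous at E16.5 (55 and 57) than at E12.5 (41 and 48). At Bcl11a, a zinc-finger regulator of neurons, the totals of 25, 28, 21 and 31 overlapped between the stages.

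Joining members that share or adjoin a bin gave 467 loci. Of these, 271 held 1 member, 149 held 2 to 4, and 47 held at least 5, with 425 members (39.6%) between them. The largest was the Hoxb locus with Skap1, 28 members over 690 kb of chromosome 11, where 116 and 65 pairs were listed inside the locus at E12.5, then 73 and 38 at E16.5; the stages overlap, since E12.5 replicate 2 lies below E16.5 replicate 1. The Emx2 locus had 27 members over 900 kb, with 102 and 108 pairs inside at E12.5, against 62 and 61 at E16.5. The Tbx3 locus, reaching to Med13l, had 24 over 950 kb, with 53, 35, 23 and 11. The Nr2f2 locus had 24 over 880 kb, with 88, 94, 56 and 22.

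The next 4 loci were those of Lhx2 with Crb2 and Dennd1a (19 members, 105, 103, 81 and 85 pairs inside), Mir9-2 with Tmem161b (17 members, 157, 146, 154 and 119), Hoxd (13 members, 49, 40, 41 and 28) and Tle3 (12 members, 63, 73, 73 and 64). In the Emx2, Tbx3, Nr2f2 and Lhx2 loci both E12.5 values exceeded both E16.5 values. In the Hoxb, Mir9-2, Hoxd and Tle3 loci the stages overlapped. The loci were built from the E12.5-only pairs, which favours higher E12.5 values. The share of all loci in either order was not counted, so nothing is read from it.

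A smaller set of bins had no listed interaction of any kind at E16.5. Of the 1627 bins with a member, 406 were such bins, and of the 307 with at least 2 members, 45 were. By the rule, both bins of each shared pair have a listed interaction at E16.5. Among the 9010 bins with a pair in both E12.5 lists, only bins with a member could thus have none. Nothing is read from these numbers. After the Tbx3 bin with 10 members and the Rgma bin with 5, the most were at a bin within Phc2, a Polycomb subunit gene, with 4 members, at 50 to 90 kb, among whose partners was the bin of Zfp362. Its members had 171 and 184 read pairs in all. A bin 3.8 kb from Ttll6, chr11:96170001-96180000, had 4 members, joining it to the Hoxb cluster, including the bins of Hoxb4, Hoxb7, Hoxb8 and Hoxb9, over 100 to 160 kb with 179 and 158 read pairs. None of these 8 pairs had an E16.5 pair within 2 bins.

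Some of these 45 bins without a listed interaction at E16.5 were partners of forebrain regulators. Those given here were chosen after their values were seen, and the share of such partners was not counted. Others of the 45 met different genes, such as the bins of Ccnd3 and Taf8, or of Hint1 and Lyrm7. A bin within Hat1 met the region of Dlx1 and Dlx2, homeobox genes of ventral forebrain and interneurons, over 100 to 120 kb, with 151 and 137 read pairs in 3 members. A bin 150 to 170 kb from Pax6, the eye and cortical progenitor factor, met it in 3 members with 97 and 80 read pairs. A bin within Ehbp1 met Otx1, a cortical and midbrain homeobox gene, in 2 members with 108 and 91. A bin within Cadps2 met the region of Fezf1, a rostral forebrain zinc-finger gene, in 2 members with 71 and 50, and a bin within Clybl met Zic2 and Zic5 in 2 members with 58 and 51. None of these pairs had an E16.5 pair within 2 bins, while the bins of Dlx1, Dlx2, Otx1 and Pax6 themselves had other listed interactions at E16.5. Dlx2 had 19 and 17 at E12.5, then 16 and 12 at E16.5. Dlx1 had 7 and 9, then 8 and 5, which overlap.

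The genes at the ends of E12.5-only pairs were also counted over 18 lists of 356 symbols, by the share of each list's pairs in both E12.5 lists that was E12.5-only. Over all pairs with a gene at 1 end or both that share was 587 of 6670 (8.80%), lower than the 11.3% of all pairs, and it is the background for the lists. The lists overlap in a few genes, genes of a cluster share bins, and the counts are a description of the rule's own outcome.

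Hox genes stood at 36 of 132 pairs (27.3%), with an E12.5-only pair at 20 of 36 genes. The bins of Hoxb6, Hoxb3 and Hoxb5 led with 12, 11 and 10, which are largely the same pairs, and Hoxb4 had 6. Other patterning genes of midbrain, hindbrain and spinal cord stood at 15 of 76 (19.7%), at 7 of 13 genes. Pax2 had 7, Pax7 had 3, and En1, a midbrain-hindbrain homeobox gene, and Lbx1 had 2 each. En1 was among genes with more interactions at E16.5, with 7 and 6 at E12.5, against 12 and 9 at E16.5.

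Genes of the diencephalon and choroid plexus stood at 36 of 148 (24.3%), at 13 of 20 genes. Lef1 had 7, Tcf7l2, another Wnt effector, had 6, and Irx3 and Lhx5 had 4 each. Tcf7l2 had 24 and 31 listed interactions at E12.5, then 19 and 9 at E16.5. Of the 28 genes of this list, 6 were at 0 in all 4 libraries, among them Ttr, the defining choroid plexus gene, while the roof plate gene Msx1 had 5, 3, 3 and 0. Genes of meninges and mesenchyme stood at 12 of 57 (21.1%), at 3 of 11 genes; 11 of the 12 were those of Tbx3. Of its 20 genes, 5 were at 0 in every library, among them Col1a2, Col3a1 and Twist1, while the meningeal factors Foxc1 and Foxc2 had 9, 11, 14 and 7 and 15, 15, 20 and 17. The part of tissue other than forebrain in these pairs was not tested.

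Genes of radial glia and neural progenitors held the most members of any list, 55 of 365 pairs (15.1%), at 18 of 24 genes. Emx2 had 8, Zfp36l1 had 6 and Id4 and Otx1 had 5 each. Otx1 had 18 and 18 listed interactions at E12.5, against 13 and 6 at E16.5. The list as a whole had similar numbers of listed interactions at both stages, 489 and 496 at E12.5, then 488 and 514 at E16.5, in lists 2.09 times as long. Genes listed as early heterochronic (genes of early developmental timing) stood at 10 of 37 (27.0%), at 3 of 5 genes. The 3 genes were Dmrta2 with 5, Hmga2, a chromatin protein of early progenitors, with 4 and Nr2f1 with 1. Nr2f1 had 16 and 19 listed interactions at E12.5, then 17 and 14 at E16.5, which overlap. Hmga1 went the other way, with 0 and 0, then 3 and 8. The list as a whole had 66 and 53 at E12.5, then 47 and 56 at E16.5, which overlap. Of 15 genes, 4 were at 0 in every library, among them Lin28a, Lin28b and Trim71.

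Deep-layer neuron genes stood at 6 of 44 (13.6%), intermediate progenitor genes at 5 of 49 (10.2%), upper-layer genes at 13 of 139 (9.35%) and GABAergic genes at 17 of 187 (9.09%). Deep-layer genes had 71 and 82 listed interactions at E12.5, against 217 and 208 at E16.5. Their members were at Nfib with 3, Tle4 with 2 and Fezf2 with 1. In the same order of libraries, intermediate progenitor genes had 75, 75, 108 and 122. Upper-layer genes had 192, 198, 302 and 314, and GABAergic genes 304, 277, 451 and 370. The upper-layer members were those of Pou3f2 and Pou3f3 with 4 each, Lhx2 with 3 and Pou3f1 with 2, which progenitors also express. Genes of axon guidance stood at 4 of 79 (5.06%) and synaptic genes at 0 of 5. The axon guidance genes had 149 and 151 listed interactions at E12.5, against 439 and 513 at E16.5. Listed interactions of the synaptic genes numbered 10 and 10 at E12.5, against 130 and 153 at E16.5, so there was little from which E12.5-only pairs could come. Glial genes stood at 10 of 94 (10.6%), 5 of them at Olig2. Signalling genes of the Notch, Wnt, Shh, Fgf and Bmp pathways stood at 17 of 196 (8.67%), with 2 each at Axin2, Dll1, Fzd8 and Gli3. Erythroid genes had 0 of 1 and housekeeping genes 0 of 2.

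**Figure D4:**
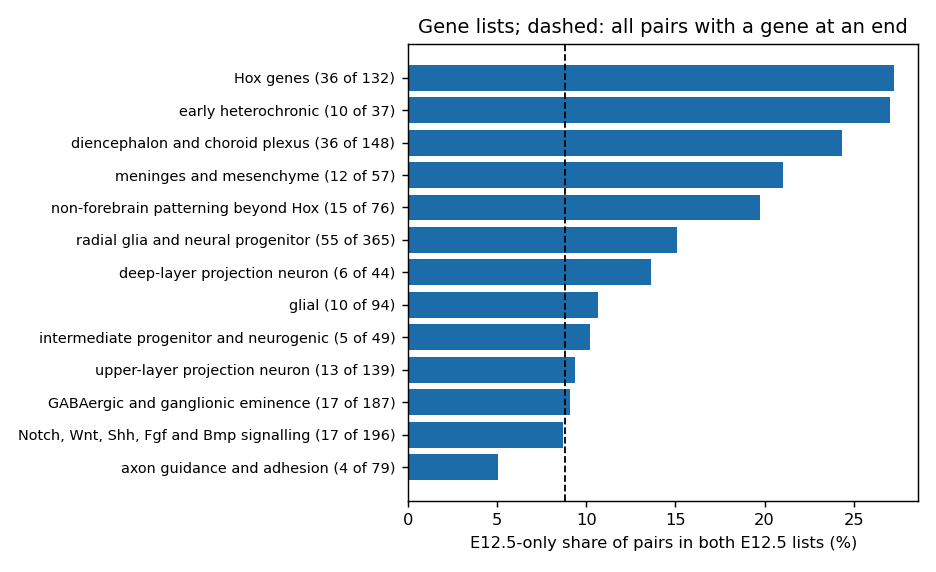
Share of bin pairs in both E12.5 lists that was listed only at E12.5 (x axis, %) for the 13 gene lists with at least 10 such pairs, with counts in brackets; the dashed line is the 8.80% of all pairs with a gene at an end. Hox, early heterochronic and diencephalic genes lie highest, at 24.3% to 27.3%, and axon guidance genes lowest, at 5.06%.

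The contacts that stayed listed in all 4 libraries at these bins were examined for their read-pair counts. The bins were chosen by the same contrast between stages in the same libraries, which favours lower E16.5 counts at their other contacts, so the counts below are a description and are no test of these bins. Over the 6875 contacts, edgeR's quasi-likelihood test with Benjamini-Hochberg adjustment at 0.05 called 315 (4.58%) lower and 404 (5.88%) higher at E16.5, with a median log2 change of -0.01. Of the 2450 that touch a bin with a member, 250 (10.2%) were lower and 93 (3.80%) higher, with a median of -0.21. Of the 134 that touch a bin with at least 5 members, 33 (24.6%) were lower and 2 (1.49%) higher, with a median of -0.52. These counts depend on the tool and on single libraries: DESeq2 called 39 lower in all and 9 at the bins with at least 5 members. edgeR called 152 lower and 149 higher in all when E12.5 replicate 1 was left out, and 142 lower and 132 higher when E12.5 replicate 2 was, so that lower calls then outnumbered higher ones. It called 161 lower when E16.5 replicate 2 was left out; the last 2 omissions gave 21 and 19 at those bins.

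For illustration, the contact with the smallest p at each bin is given by its read pairs, with no call. At the Emx2 bin with 13 members this was a contact 690 kb away with 60 and 66 read pairs at E12.5, then 22 and 28 at E16.5. At Zfp36l1 a 510 kb contact with Rad51b had 54, 53, 17 and 31 in the same order of libraries. At the Pax6 bin a 410 kb contact with Dcdc5 had 86, 77, 46 and 26, and at Dmrta2 a 210 kb contact within Faf1 had 48, 56, 29 and 21. In these 4 contacts both E12.5 counts exceeded both E16.5 counts, before any scaling, an order that choosing the smallest p favours. At bins not named above, the counts were likewise separated at Id4 (72, 64, 48 and 37) and overlapped at Cd40 (82, 75, 78 and 64). At the Mir9-2 bin the contact, 330 kb away, had 214 and 197 read pairs at E12.5 against 520 and 308 at E16.5. At the Hoxb3, Hoxb5 and Hoxb6 bin the contact with Copz2 at 550 kb had 14, 13, 12 and 16, which overlap. The Lhx2, Tbx3, Tle3, Pax2, Olig2 and Rgma bins had no contact in all 4 lists.

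**Figure D5:**
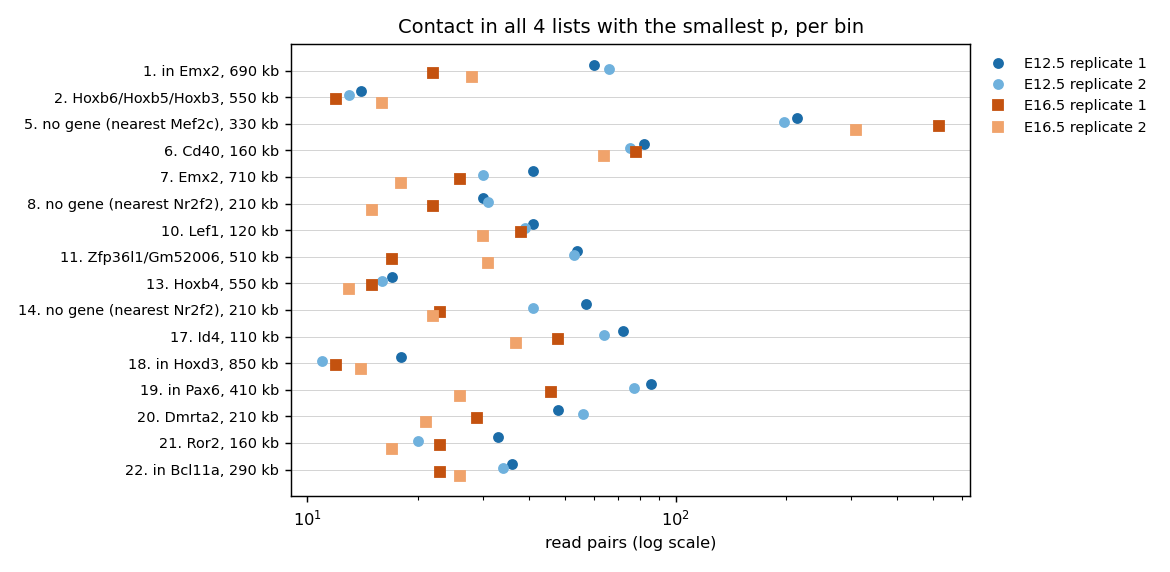
Read pairs (x axis, log scale) in each library for the contact with the smallest p among those in all 4 lists, at each bin with at least 5 E12.5-only pairs that has such a contact (rows, with the distance in kb). The raw counts at E12.5 (circles) exceed those at E16.5 (squares) at Emx2, Zfp36l1, Pax6 and Dmrta2, among others, and overlap with them at Cd40 and Hoxd3, among others. The E12.5 counts lie below the E16.5 counts at the bin nearest Mef2c, which holds Mir9-2. Choosing each contact by its p favours separated counts.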

How the data were processed

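H3K4me3 PLAC-seq was analysed in 4 libraries of mouse fetal forebrain, 2 each at E12.5 and E16.5; the 12 single-cell libraries of the series were not used here. Per the labels' protocols, chromatin was crosslinked with formaldehyde and cut with MboI. The submitters' processing notes name BWA, SAMtools and mm10, without versions; the interaction caller is not given in the sources used here. Each library has its own list of pairs of 10 kb bins with a deposited count of read pairs and, per the file headers, an expected count (a signal whose correction is unstated), an FDR (q-value), and a cluster type, size (a count) and −log10 p. In the deposited lists pairs lay 20 to 1000 kb apart on autosomes, with an FDR under 0.01 and a ratio of observed to expected of at least 2.

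Genes came from RefSeq tables of GRCm38.p6, whose primary sequence is that of mm10: 20665 autosomal protein-coding genes, 16457 with a start and the rest placed by either end. Of 356 listed symbols, 347 lay on autosomes. Coordinates are 1-based. Loci joined members that share or adjoin a bin. The named items were the 12 bins and 8 loci with the most members, the 8 pairs with the highest mean ratio (1 per bin), the 5 longest with a gene at each end, and up to 4 genes per list with at least 2 members; items named outside this rule were chosen after their values were seen. The members and lists were chosen with earlier results of these data known.

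Contact strength was tested with edgeR 4.0.16 in R 4.3.3 (TMM, robust quasi-likelihood, stage as the sole term, E16.5 minus E12.5) on deposited counts of pairs in all 4 lists, tested on simulated data first; DESeq2 1.42.0 was an alternative. Library depth is unknown. Same-numbered replicates are not stated to be paired; over 6875 contacts the deviations of the replicates numbered 1 from their stage means had a correlation of 0.128.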

Additional observations from a re-analysis of the deposited data

How the results depend on the processing

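The E12.5-only pairs depend on how lists are matched. Requiring no E16.5 pair within 1 bin left 294 (3.10% of pairs in both E12.5 lists, median 190 kb), and within 2 bins 192 (2.03%, 170 kb). An E12.5 FDR under 0.0001 left 297 (6.39%, 200 kb). Lists cut to 16075 pairs gave 2205 (25.0%, 240 kb), so the E12.5-only number was not lower when the lists had equal length. At most 200 kb gave 483, and counting each cluster once gave 687. Leaving out a library gave 1760 to 4812 pairs (18.6% to 26.1%, median 220 to 240 kb), because each omission drops a condition of the rule, and 55.1% to 62.2% with a gene at 1 end or both. Wider gene definitions gave 65.0% and 84.2%. Loci numbered 109 with at least 3 members and 11 with at least 10, 33 with adjacent bins not joined, and 90 to 235 with a library left out.

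Among the 12 bins with the most members, cutting the lists to equal length kept the number within 1.5 times at 9, and the 1-bin rule at 2. The 1-bin rule gave 0 at the Lhx2, Tbx3 and Tle3 bins and at the bin 21.9 kb from Nr2f2.

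For contact strength, DESeq2 called 39 lower and 59 higher, and 9 lower at bins with at least 5 members. At least 20 read pairs per library gave 268 higher, and 18 lower at those bins. Leaving out a library gave 142 to 220 lower, 132 to 317 higher, and 19 to 29 at those bins. With the replicate number as a block, edgeR called 407 lower, 532 higher and 38 lower at those bins; with 2 pairs the numbers are not shown to pair the libraries. Without TMM there were 338 lower and 341 higher. More contacts were higher than lower in the reported fit, and fewer were without E12.5 replicate 1 (152 lower, 149 higher) or without E12.5 replicate 2 (142 and 132). Low counts limit what can be listed: the lowest listed count was 6 to 7 read pairs.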

Other observations

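The imprinted Dlk1 and Meg3 region of chromosome 12, chosen after its values were seen, had 5 E12.5-only pairs over 190 kb. Dlk1 encodes a transmembrane growth regulator and Meg3 is a maternally expressed noncoding RNA. Inside the region 7 and 12 pairs were listed at E12.5, against 0 and 0 at E16.5, and none of the 5 had an E16.5 pair within 2 bins. The bin of Dlk1 nonetheless had 6 and 1 listed interactions at E16.5, against 5 and 8 at E12.5, and that of Meg3 had 4 and 4, against 3 and 3, so both had other partners at the later stage. The 3 pairs that end at the Meg3 bin had 95 and 82 read pairs in all.

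Several further neural loci, also chosen after their values were seen, held E12.5-only pairs with no E16.5 pair within 2 bins. The bin of Irx3, a homeobox gene of the posterior forebrain and hindbrain, had 4 such pairs over 210 to 340 kb with 85 and 71 read pairs, and 21, 16, 10 and 6 listed interactions. Ebf2, a gene of Cajal-Retzius cells, had 3 of its 4 E12.5-only pairs without one, with totals of 13, 7, 3 and 4. The bin of Mir124a-2, a neuronal microRNA gene, had 2 of its 3, and its totals of 32, 24, 30 and 31 overlapped between the stages.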
